A study of Mus musculus with 12 samples.

Results

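The 35 genes described here act in G2 phase and mitosis, the end of the cell cycle in which a cell checks its copied DNA, condenses its chromosomes and divides. They were taken from a list of gene names and found by symbol, all 35 of them, among the 54393 genes of an expression table and in 1268 of the 401633 events of a splicing table. The cells were N2a, a mouse neuroblastoma line, whose Flp-In rtTA derivatives carried a FLAG-tagged Sap30bp cDNA that doxycycline switches on. The cDNA was without exon 3 of Sap30bp in one derivative (the mEx3 line) and held that exon in the other (the pEx3 line). Each line was given a non-targeting siRNA pool (control), an siRNA against Sap30bp (knockdown), or that siRNA with doxycycline (rescue). The medium was changed 24 hours after transfection and the wells of a condition were combined at 72 hours. Each of the 6 groups had 2 biological replicates. Doxycycline was not combined with the control siRNA in any group, so its own effect and that of the induced cDNA cannot be told apart, nor can the isoform and the line that carries it. SAP30BP is a nuclear protein that works with the splicing factor RBM17.

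Entry into mitosis is driven by the kinase CDK1, which needs a B-type or A-type cyclin and is switched on when CDC25 phosphatases take off its inhibitory phosphates. Kinases of the Polo and Aurora families, a checkpoint at the kinetochores and kinesin motors then attach and align the chromosomes, and the anaphase-promoting complex releases separase to part the sister chromatids. Most of these genes are transcribed in a wave late in the cell cycle through CCAAT boxes and CHR elements in their promoters, which bind NF-Y and the DREAM and MuvB complexes. In RNA from a whole culture, fewer cells in G2 or mitosis and less RNA per cell cannot be told apart.

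The read depth is unknown, since the values used here come without read numbers, and 182904 to 207284 splicing events had a value per library. Expression is given as RPKM, reads scaled to transcript length and library size, with 1 value per group and no spread between replicates. The siRNA's target, Sap30bp, stood at 40.03, 21.7 and 196 RPKM in control, knockdown and rescue of the mEx3 line in the authors' deposited table, and at 33.6, 18.6 and 141 RPKM in the other line. Its knockdown log2 fold changes in the authors' deposited table were -0.63 (FDR 0.0674) and -0.60 (FDR 0.0684). Of 16 markers of neuroblastoma and neuronal identity, 12 reached 1 RPKM in at least 1 group, and Nefl, Nefm and Th were among those that did not. Fibroblast markers summed to between 1.81 and 4.54 RPKM over 10 genes in the authors' deposited table, and glial and immune markers to between 9.02 and 11.6 RPKM.

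All 35 genes were expressed at 1 RPKM or more in every group. Their median lay between 43.98 and 51.2 RPKM by group in the authors' deposited table. That is the 80.0 to 83.0 percentile of the 13647 genes with 1 RPKM or more in any group. The highest level was that of Cdk1, the kinase itself, at 396 to 540.5 RPKM in the authors' deposited table. Below it lay Ube2c, the ubiquitin-conjugating enzyme of the anaphase-promoting complex, with 129.85 to 262 RPKM in the authors' deposited table, Ccnb1, cyclin B1, with 186 to 237 RPKM, and Top2a, a DNA topoisomerase, with 164 to 182 RPKM. The lowest was Cenpe, a kinetochore kinesin, at 11.03 to 13.96 RPKM in the authors' deposited table. The range of Ube2c overlaps those of Ccnb1 and Top2a, and since the table gives no spread, its place in the order is not settled.

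The first comparison asked how the genes changed when Sap30bp was depleted. In the mEx3 line 0 of the 35 passed an FDR of 0.05 in the authors' deposited table, where 2.26% of 21541 tested genes did, and 4, 11.4%, had an unadjusted p under 0.05, against 11.9% of tested genes. Of the 35, 1 gene, Cdc25b, passed in the pEx3 line in the authors' deposited table, against 3.68% of all tested genes, and again 4, 11.4%, had an unadjusted p under 0.05, against 13.6% of tested genes. The 4 were Cdc25b, Ccnb2, Cenpa and Pttg1 in both lines. No gene of the 35 passed in both lines, which 1.57% of tested genes did with one sign. When the p-values of both lines, which share no library, were combined over their signed z, the same 4 genes fell and 0 rose at an adjusted p under 0.05. Among all tested genes 10.6% passed this combined test, 6.38% as lower and 4.24% as higher. Against all tested genes, the 4 of 35, 11.4%, stood near the share of both directions and above that of lower genes. Many tested genes are barely expressed, however. Of the 13647 genes at 1 RPKM or more in any group, which include all 35, 1263 passed as lower and 667 as higher. Both are larger shares than over all tested genes. An unadjusted p under 0.05 by the combined test was found for 17.1% of the 35, against 27.9% of these expressed genes. The difference between these shares was not tested.

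**Figure D1:**
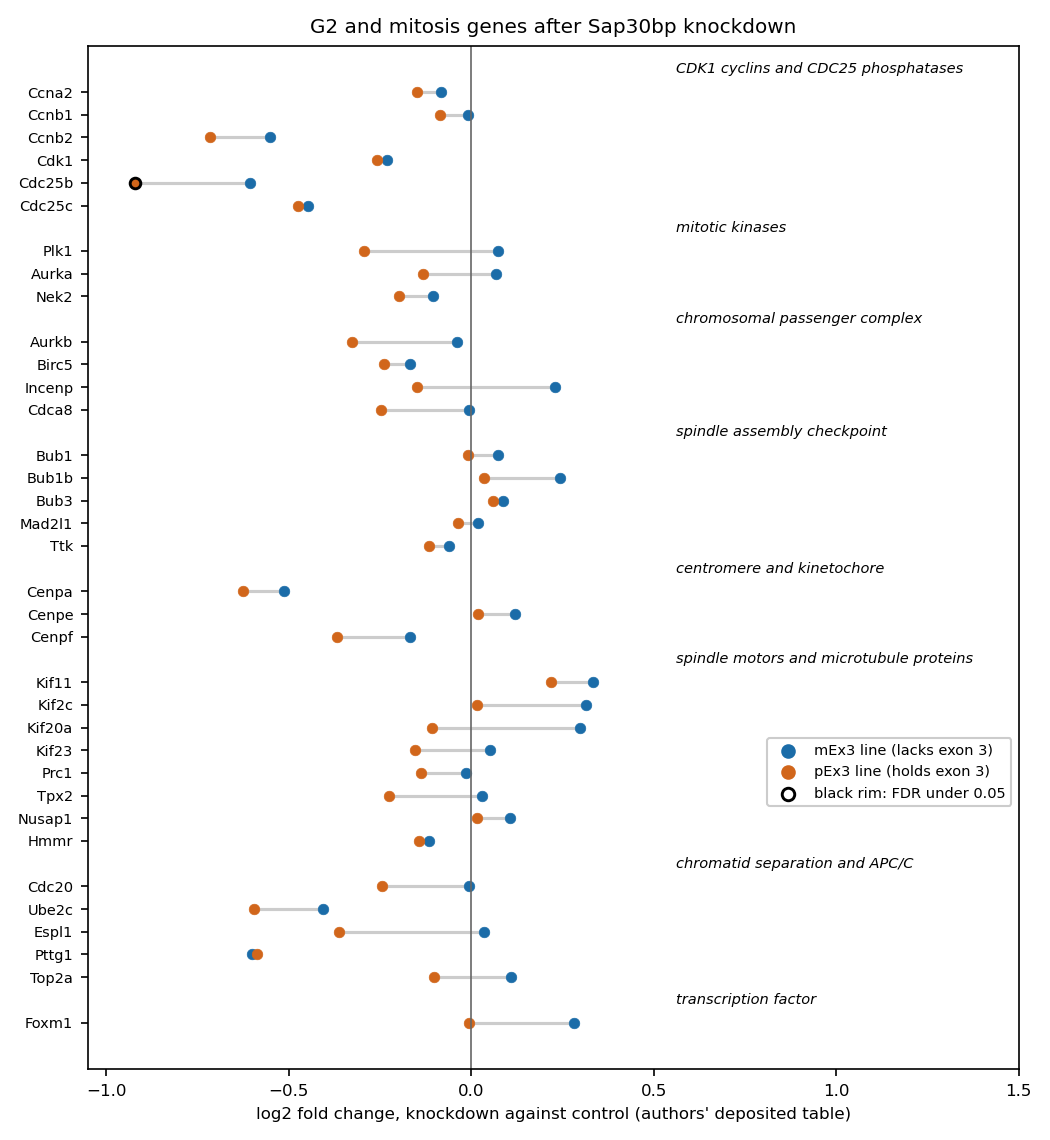
Log2 fold change of knockdown against control (horizontal axis) for the 35 genes, grouped by role, from the authors' deposited table. Blue points are the mEx3 line and orange points the pEx3 line, and a black rim marks FDR under 0.05. Cdc25b, Ccnb2, Cenpa, Pttg1, Ube2c and Cdc25c lie to the left in both lines. The orange point lies left of the blue one for 34 of 35 genes, which share libraries, with no count over all genes beside it.

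For most of the 35 genes the fold changes were small. The median log2 fold change in the authors' deposited table was -0.01 in the mEx3 line, with 17 genes higher and 18 lower, and -0.15 in the pEx3 line, with 6 higher and 29 lower. Over the 13647 genes at 1 RPKM or more in any group it was -0.03 and -0.02, with 53.1% and 51.9% of genes lower. The direction was lower in both lines for 18 genes, higher in both for 6 and lower in the pEx3 line alone for 11. For 34 of the 35 the log2 fold change was lower in the pEx3 line, Pttg1 being the exception. These counts of direction have no count over all genes beside them here. The 35 genes share the libraries of each group, so the counts are not separate results. Tested as a difference of signed z between the lines, 0 of the 35 differed at an adjusted p under 0.05, where 0.00928% of all tested genes did. Across the 35 genes the fold changes of both lines had a Pearson r of 0.89, which describes these genes only, since they share the libraries of each group. The fold changes are the authors' own and are not ratios of the RPKM values, and both had opposite signs for 5 of the 35 genes in the mEx3 and 3 in the pEx3 line, all with small changes.

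The promoters of the 4 genes that fell by the combined test, and of Cdk1, which did not pass, show the elements that these genes share and where they are missing. The RefSeq promoter table on GRCm38.p6 held 28 of the 35 genes, with windows from 250 bases before to 50 bases after the gene's start. The 250 bases before the start are given 5′ to 3′ on the gene's strand. Capitals mark CCAAT or its reverse complement ATTGG, and TTTGAA or its reverse complement TTCAAA, the CHR element.
Cdc25b, chr2:131186698-131186947, plus strand: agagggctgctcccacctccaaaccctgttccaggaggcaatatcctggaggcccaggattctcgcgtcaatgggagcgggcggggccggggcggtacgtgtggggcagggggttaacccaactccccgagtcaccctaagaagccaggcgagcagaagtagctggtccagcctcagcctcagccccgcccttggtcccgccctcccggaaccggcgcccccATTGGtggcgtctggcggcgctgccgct
Ccnb2, chr9:70421555-70421804, minus strand: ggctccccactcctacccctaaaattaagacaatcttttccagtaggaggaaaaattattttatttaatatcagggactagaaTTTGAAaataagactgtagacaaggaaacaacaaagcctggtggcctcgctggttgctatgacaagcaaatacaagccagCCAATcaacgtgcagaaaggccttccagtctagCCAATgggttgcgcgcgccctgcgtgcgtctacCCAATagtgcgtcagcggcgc
Cenpa, chr5:30666636-30666885, plus strand: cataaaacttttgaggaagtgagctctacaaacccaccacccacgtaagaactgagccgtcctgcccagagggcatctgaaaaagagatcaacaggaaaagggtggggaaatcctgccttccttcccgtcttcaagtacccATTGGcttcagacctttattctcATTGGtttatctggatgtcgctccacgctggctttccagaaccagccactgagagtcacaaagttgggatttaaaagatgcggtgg
Pttg1, chr11:43425982-43426231, minus strand: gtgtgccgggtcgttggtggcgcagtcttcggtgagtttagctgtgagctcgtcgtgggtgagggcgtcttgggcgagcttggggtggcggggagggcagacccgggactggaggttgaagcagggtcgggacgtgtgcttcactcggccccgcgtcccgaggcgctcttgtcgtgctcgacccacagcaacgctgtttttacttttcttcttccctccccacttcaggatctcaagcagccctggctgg
Cdk1, chr10:69352913-69353162, minus strand: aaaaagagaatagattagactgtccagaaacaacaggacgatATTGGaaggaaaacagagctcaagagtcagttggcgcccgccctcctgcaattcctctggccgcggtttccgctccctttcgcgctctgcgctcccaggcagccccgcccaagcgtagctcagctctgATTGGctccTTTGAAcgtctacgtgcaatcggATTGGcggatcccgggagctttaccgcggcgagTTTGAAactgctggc

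CCAAT was found on either strand in the window of 23 of the 28 genes, 82.1%, and in 41.1% of the windows of 27025 genes. TTTGAA was found in 19 of 28, 67.9%, against 20.2% of all windows, and TTCGAA, a variant that is its own reverse complement and overlaps no TTTGAA, in 4 of 28, 14.3%, against 1.8%. CCAAT together with either CHR form occurred in 20 of 28, 71.4%, against 8.61% of all windows. The window of Ccnb2 held 3 CCAAT matches, beginning 87, 54 and 21 bases before the start, and TTTGAA 5 bases after it as well as 167 bases before it. Cdk1 also held 3 CCAAT matches and had TTTGAA beginning 71 and 15 bases before its start. Cenpa held 2 CCAAT matches, and its TTTGAA lay 17 bases after the start. Cdc25b held 1 CCAAT match, 28 bases before the start, and a TTCGAA 8 bases after it. The window of Pttg1 held no match to any of these motifs. A match is a description of the letters and not of binding, and genes with these elements stood both among the 4 that fell and among those that did not pass.

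Of the 6 genes that encode CDK1, its cyclins and the CDC25 phosphatases, Cdc25b and Ccnb2 fell by the combined test. None of the 6 passed the FDR in the mEx3 line and 1 did in the pEx3 line, by the authors' deposited table. All 6 had negative log2 fold changes in both lines, with medians of -0.34 and -0.37 in the authors' deposited table, where 18 and 29 of the 35 genes were negative. Cdc25b, a phosphatase that activates CDK1 at the start of mitosis, was measured in the mEx3 line at 47.75 RPKM in control and 31.4 RPKM in knockdown by the authors' deposited table. For the pEx3 line the authors' deposited table gives 51.2 and 26.6 RPKM for Cdc25b, so its knockdown level was 65.8% of control in the first line and 52.0% in the second. Its log2 fold changes were -0.61 (FDR 0.118) and -0.92 (FDR 0.00167) in the authors' deposited table, and the combined test, over the authors' p-values, gave an adjusted p of 3.06e-05.

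Cyclin B2 was the other gene of this group to fall by the combined test. By the authors' deposited table Ccnb2 had 41.02 RPKM in control against 27.6 in knockdown of the mEx3 line, and 41.4 against 25.4 RPKM in the pEx3 line. These are log2 fold changes of -0.55 (FDR 0.27) and -0.72 (FDR 0.0676) in the authors' deposited table, with a combined adjusted p of 0.00395 by the z test over the authors' p-values. Its partner cyclin B1 stayed closer to control. Ccnb1 was at 190.1 and 186 RPKM in control and knockdown of the first line and at 215 and 196 RPKM in the second in the authors' deposited table, with log2 fold changes of -0.01 and -0.08 that did not pass. Ccna2, cyclin A2, had log2 fold changes of -0.08 and -0.15 in the authors' deposited table. By the authors' deposited table Cdk1 itself had 476 RPKM in control against 396 in knockdown, and 504 against 417 RPKM in the pEx3 line, with an FDR of 0.828 and 0.712. Cdc25c, the second CDC25 phosphatase here, had log2 fold changes of -0.45 and -0.48 in the authors' deposited table and a combined adjusted p of 0.0656 over the authors' p-values, just outside the threshold. From its RPKM values with a pseudocount of 1 the log2 ratio in the mEx3 line was -0.31.

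**Figure D2:**
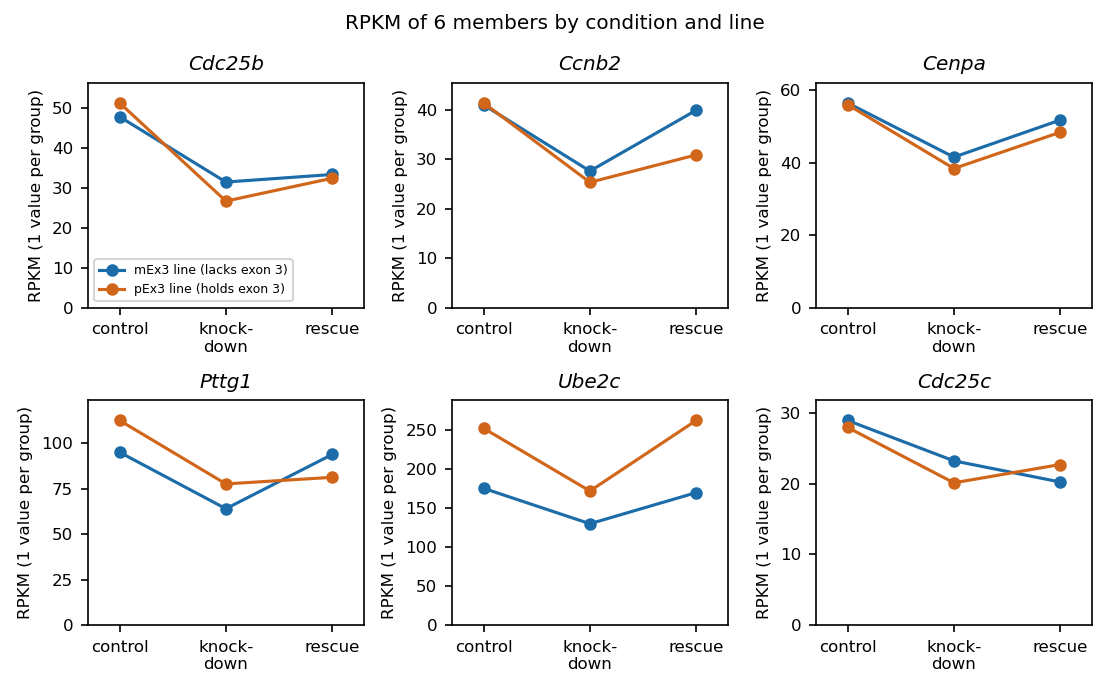
RPKM (vertical axis, from 0) of Cdc25b, Ccnb2, Cenpa, Pttg1, Ube2c and Cdc25c in control, knockdown and rescue, with 1 value per group from the authors' deposited table and therefore no error bars. Knockdown lies below control in both lines (blue mEx3, orange pEx3) for all 6 genes, and Cdc25b after rescue lies at 69.7% and 63.2% of control.

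At the centromere 1 of 3 genes fell by the combined test and the others did not pass. Cenpa, the histone H3 variant that marks the centromere, stood at 56.5 RPKM in control and 41.5 after knockdown of the mEx3 line in the authors' deposited table. The pEx3 line had 56.02 and 38.4 RPKM for Cenpa by the authors' deposited table. Its log2 fold changes of -0.51 (FDR 0.219) and -0.63 (FDR 0.0675) in the authors' deposited table gave a combined adjusted p of 0.00285 over the authors' p-values. Cenpf, a large kinetochore protein, had log2 fold changes of -0.17 and -0.37 in the authors' deposited table, and Cenpe 0.12 and 0.02, all with FDR over 0.05.

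Among the genes of chromatid separation and the anaphase-promoting complex, 1 of 5 fell by the combined test. Pttg1 encodes securin, which holds separase inactive until anaphase. It stood at 94.97 RPKM in control and 63.9 after knockdown of the mEx3 line, and at 112 and 77.6 RPKM in the other, in the authors' deposited table. Pttg1 had log2 fold changes of -0.60 (FDR 0.152) and -0.59 (FDR 0.133) in the authors' deposited table, with a combined adjusted p of 0.00357 over the authors' p-values. Ube2c had log2 fold changes of -0.40 and -0.59 in the authors' deposited table, with an FDR of 0.744 and 0.407 and a combined adjusted p of 0.151 over the authors' p-values. Espl1 encodes separase, the protease that securin blocks, and had log2 fold changes of 0.03 and -0.36 in the authors' deposited table. Cdc20, an activator of the complex, had -0.01 and -0.24 and Top2a, which untangles sister DNA, 0.11 and -0.10, likewise without passing.

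The kinases, the passenger complex, the checkpoint and the motors showed no gene past either threshold. Over the 29 genes other than the 6 of the RPKM plot, the log2 fold change ran from -0.23 to 0.33 in the mEx3 line and from -0.37 to 0.22 in the pEx3 line in the authors' deposited table, with lowest FDR values of 0.587 and 0.496. Plk1, the Polo kinase, had 0.07 and -0.29 in the authors' deposited table, Aurka, the spindle pole Aurora kinase, 0.07 and -0.13, and Nek2, which parts the centrosomes, -0.10 and -0.20. In the chromosomal passenger complex, which corrects faulty attachments, Aurkb had -0.04 and -0.33, Birc5 -0.17 and -0.24, Incenp 0.23 and -0.15 and Cdca8 -0.01 and -0.25 as log2 fold changes in the authors' deposited table. The spindle assembly checkpoint genes Bub1, Bub1b, Bub3, Mad2l1 and Ttk, which hold back anaphase, lay between -0.06 and 0.24 in the first line and between -0.12 and 0.06 in the second in the authors' deposited table. No checkpoint gene passed either test.

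The spindle motors and microtubule proteins had medians of 0.08 and -0.12 in the authors' deposited table. Kif11, the motor that pushes the spindle poles apart, had the highest log2 fold change of the 35 in both lines, 0.33 (FDR 0.665) and 0.22 (FDR 0.824) by the authors' deposited table. Its RPKM went from 27.7 to 35.5 and 30.8 to 33.95 by the authors' deposited table. Kif2c, a microtubule depolymerase, had log2 fold changes of 0.31 and 0.02 in the authors' deposited table, and the cytokinesis kinesins Kif20a 0.30 and -0.11 and Kif23 0.05 and -0.15. Prc1, which bundles midzone microtubules, had -0.01 and -0.14, Tpx2, an activator of Aurora A, 0.03 and -0.22, Nusap1 0.11 and 0.01, and Hmmr -0.11 and -0.14 as log2 fold changes in the authors' deposited table. Foxm1, the transcription factor of the late wave, had 0.28 (FDR 0.773) and -0.01 (FDR 1) in the authors' deposited table. None of these passed in either line.

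The second comparison asked whether an induced isoform returned the genes to control. Rescue against knockdown shares the knockdown libraries with the comparison above, so the comparisons are not independent. In the mEx3 line 0 of 35 passed in the authors' deposited table, where 0.0232% of tested genes did. An unadjusted p under 0.05 was found for 2, Pttg1 and Cdk1, which is 5.71% against 5.98% of tested genes. In the pEx3 line 0 passed in the authors' deposited table, where 0.00464% of tested genes did. There 0 had an unadjusted p under 0.05, against 1.33% of tested genes. Rescue against control shares the control libraries. In the mEx3 line it had 0 of 35 past the FDR in the authors' deposited table, against 0.924% of tested genes. Here 1 gene, 2.86%, had an unadjusted p under 0.05, against 8.22% of tested genes. In the pEx3 line 1 of 35, Cdc25b, passed in the authors' deposited table, as lower in rescue than in control. Of tested genes 2.27% passed in either direction, and 281 of 21541 passed as lower. There 2 genes, 5.71%, had an unadjusted p under 0.05, against 10.5% of tested genes.

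Cdc25b stood at 33.3 RPKM after rescue in the mEx3 line and at 32.4 RPKM in the pEx3 line in the authors' deposited table, which is 69.7% and 63.2% of control. Its log2 fold changes of rescue against control were -0.52 (FDR 0.388) and -0.80 (FDR 0.0146) in the authors' deposited table. Ccnb2 was at 39.95 RPKM after rescue in the mEx3 line, 97.4% of its control, and at 30.9 RPKM in the pEx3 line, 74.6% of control, in the authors' deposited table. Pttg1 was at 93.8 RPKM, 98.7% of control, and at 81.2 RPKM, 72.2% of control, in the authors' deposited table. These 2 genes had a higher share of control in the mEx3 line. The log2 fold changes of rescue against knockdown were 0.67 (FDR 0.602) and 0.10 for Pttg1 and 0.45 and 0.28 for Ccnb2 in the authors' deposited table, and the difference of rescue between the lines, which 0.00928% of tested genes passed, had an adjusted p of 1 for every one of the 35 genes. Cenpa was at 51.8 and 48.4 RPKM after rescue in the authors' deposited table, 91.6% and 86.4% of control. Ube2c reached 169.7 and 262 RPKM in the authors' deposited table, 96.9% and 104% of control, and Cdc25c 20.2 and 22.7 RPKM, 69.9% and 81.2% of control.

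Line against line under one condition, 0 of the 35 passed in the authors' deposited table in control, knockdown or rescue, where 3.73%, 2.9% and 3.29% of tested genes did. In each condition 1 of the 35, 2.86%, had an unadjusted p under 0.05, against 11.5%, 12.2% and 11.9% of tested genes. In control it was Plk1, with a log2 fold change of 0.41 (FDR 0.329) of the pEx3 over the mEx3 line in the authors' deposited table. In knockdown it was Espl1, with -0.64 (FDR 0.105), and in rescue Ube2c, with 0.63 (FDR 0.404). The median over the 35 genes was 0.09 in control, with 25 genes higher in the pEx3 line, and -0.06 in knockdown, with 12 higher, in the authors' deposited table. The lower knockdown fold changes of the pEx3 line thus stood beside slightly higher control values in that line, and both comparisons share the control libraries.

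Other genes of the same processes were set beside the 35 from lists that hold none of them. Among 17 genes of the anaphase-promoting complex and its partners, 21 of condensin and cohesin, 35 of the kinetochore and centromere and 30 of the spindle, centrosome and cytokinesis, 0 passed the FDR by the authors' deposited table in mEx3 or pEx3 cells, and 0 did among 40 of DNA replication and S phase. Of all tested genes 2.26% passed in the mEx3 line and 3.68% in the pEx3 line, so lists of this size would hold few such genes. Of 36 G2 regulators and DREAM or MuvB subunits, 2 were lower in the mEx3 line, and 1 was lower and 1 higher in the pEx3 line in the authors' deposited table. Of all 21541 tested genes 246 were lower in the mEx3 line, and 474 lower and 319 higher in the pEx3 line, at the same FDR. Cdkn3, a phosphatase that acts on cyclin-dependent kinases, passed in both lines. It stood at 18.7 RPKM in control and 10.07 after knockdown of the first line, and at 25.8 and 12.8 RPKM in the second, in the authors' deposited table. Its log2 fold changes were -0.90 (FDR 0.0317) and -0.998 (FDR 0.00663) in the authors' deposited table. Ccng2, an atypical cyclin of arrested cells, had -0.87 (FDR 0.049) and -0.75 (FDR 0.0925) in the authors' deposited table. Gadd45a, a stress-induced gene that restrains CDK1, was at 12.05 and 13.7 RPKM in control and knockdown of the mEx3 line and at 9.64 and 30.3 RPKM in the pEx3 line in the authors' deposited table. Its log2 fold changes were 0.18 (FDR 0.959) and 1.56 (FDR 1.02e-05) in the authors' deposited table, and the difference between the lines had a p of 0.000623 by the signed z, with an adjusted p of 1 over all tested genes.

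**Figure D3:**
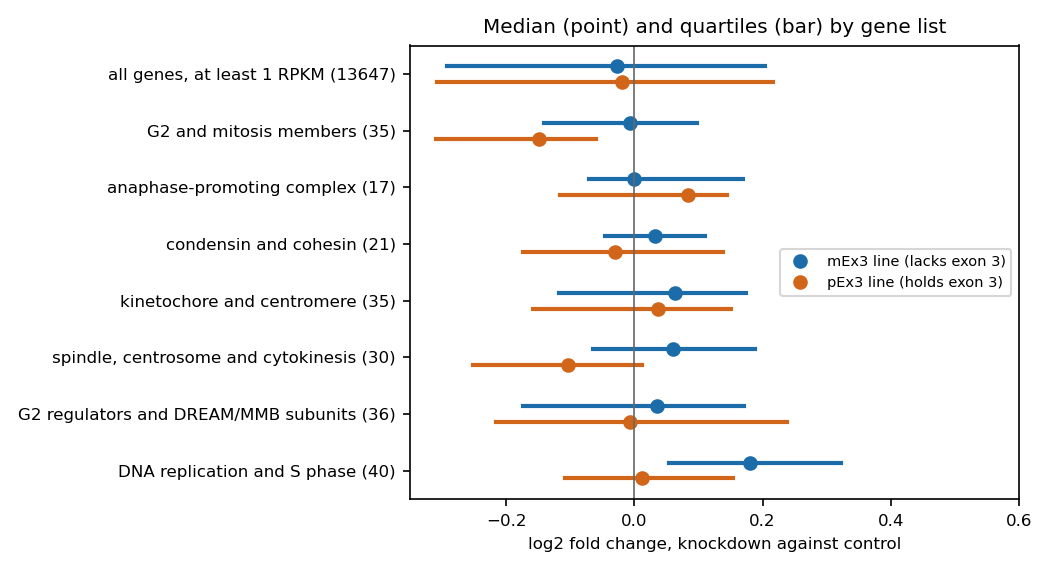
Median (point) and quartiles (bar) of the log2 fold change of knockdown against control for each gene list, from the authors' deposited table, with the number of genes in brackets. Blue is the mEx3 and orange the pEx3 line. The G2 and mitosis genes have medians of -0.01 and -0.15, and the DNA replication genes 0.18 and 0.01.

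The median log2 fold changes were 0.06 and 0.04 for the kinetochore list, 0.06 and -0.10 for the spindle list, and 0.18 and 0.01 for DNA replication in the authors' deposited table, where 31 of 40 replication genes were higher in the mEx3 line and 21 in the pEx3 line. Of the 16 markers of neuronal identity 14 were tested, with a median log2 fold change of -0.03 in the mEx3 line, 6 higher and 8 lower, and 0.45 in the pEx3 line, 10 higher and 4 lower, by the authors' deposited table. Past the FDR as higher were 1 of 14 in the mEx3 line and 3 of 14 in the pEx3 line in the authors' deposited table, and 0 were lower. Of all 21541 tested genes 241 and 319 passed as higher. By the combined test 5 of 14 rose and 0 fell, against the 4.24% and 6.38% of all tested genes. Phox2a, a transcription factor of noradrenergic neurons, passed as higher in both, at log2 fold changes of 0.96 (FDR 0.0175) and 1.31 (FDR 9.93e-05) by the authors' deposited table. The summed RPKM of the 16 markers was 1737 in control and 1729 after knockdown of the first line and 1331 and 1602 in the second in the authors' deposited table. Their part in the values of the 35 genes was not tested.

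Splicing of the 35 genes was read from the percentage of a gene's transcripts with the exon included, the splice site used or the intron retained, in each of 12 libraries. Of 1268 events, 388 had a mean under 2%, 438 a mean over 98%, 130 lacked a value in some library and 177 were first-site entries. The remaining 135 events, in 29 genes, were tested, 79 of them introns. No tested event lay in Ccna2, Ccnb1, Cdk1, Kif11, Mad2l1 or Ube2c. Over the mean of both lines, 1 of the 135 was called by limma at an adjusted p under 0.05 with at least 15 points, against 1.48% of 28980 events. In each line alone 0 of the 135 were called, against 0.0207% and 0.338% of all events, and 8 and 9, 5.93% and 6.67%, had an unadjusted p under 0.05, against 10.5% and 13.5% of all events. Over the mean of both lines, 14 of 135, 10.4%, had an unadjusted p under 0.05, against 19.1% of all events. In rescue against knockdown and in rescue against control limma called 0 of the 135 in either line, where 0.00345% of all events were called in the mEx3 line and 0% in the pEx3 line in both comparisons. It also called 0 for the difference of the rescue between the lines, against 0.00345%, and 0 for the difference of the knockdown and for control against control, against 0%. The unadjusted p was under 0.05 for 1, 6, 8, 7, 8, 3 and 1 of the 135 in these comparisons, in the order given, against 8.57%, 6.84%, 5.58%, 8.39%, 5.27%, 3.2% and 4.24% of all events.

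The called event was an intron of Espl1, the separase gene, of 344 nt at chr15:102126847-102127190 on mm9. Its retention in the mEx3 line was 47.26% and 39.26% in control, 31.02% and 20.98% in knockdown, and 22.22% and 18.22% in rescue. The pEx3 line had 41.38% and 40.44% in control, 26.52% and 24.3% in knockdown, and 25.93% and 29.18% in rescue. All 4 control libraries lay above all 8 others. Retention fell by 16.4 points (SE 3.39) on knockdown over both lines, with an adjusted p of 0.0248 by limma. The authors' deposited splicing table calls this intron in knockdown of both lines, at -16.49 and -15.22 points, and in rescue against control of the mEx3 line, at -22.41 points. The call was lost when any 1 of 5 libraries was left out. In the mEx3 line the adjusted p by limma was 0.114 without the first control and 0.0941 without the second knockdown replicate. In pEx3 cells it was 0.104 and 0.0679 without the first and second control and 0.0735 without the second knockdown replicate, and with no filter on the mean it was 0.157. An alternative 3′ splice site of Espl1, listed with a length of 54 nt and the wider interval chr15:102127137-102127280, overlaps this intron. Its use differed by -7.21 points (adjusted p of 0.202 by limma).

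**Figure D4:**
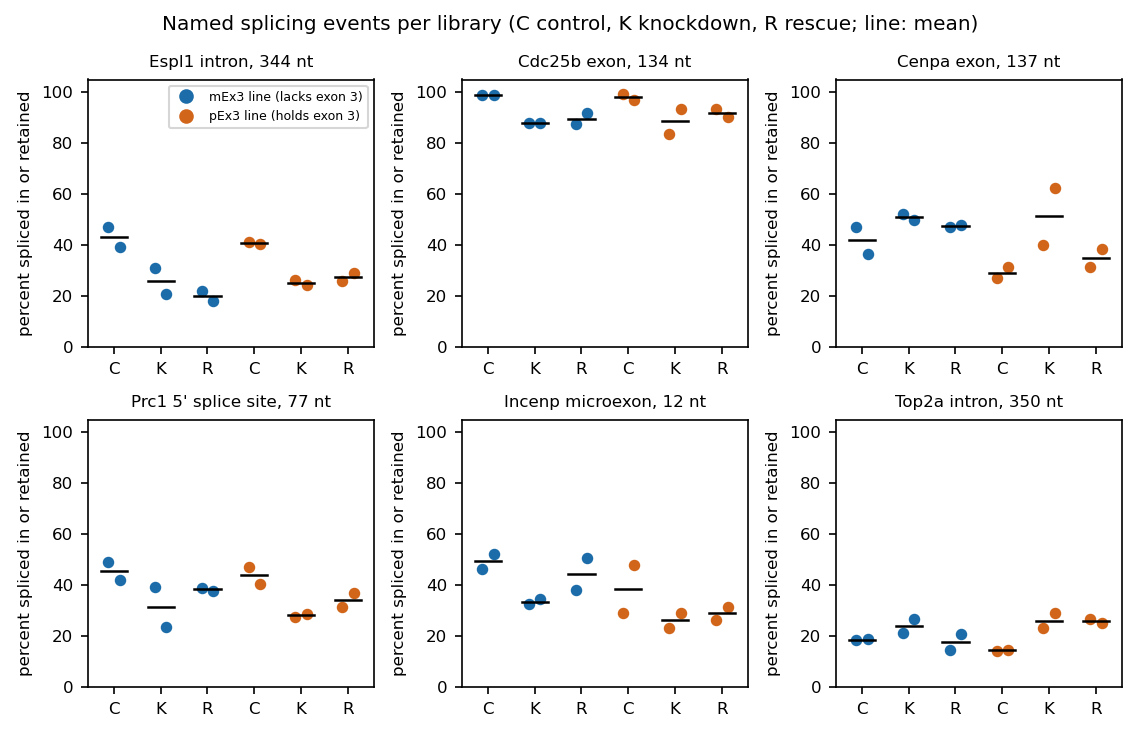
Percent spliced in, or percent retained for introns (vertical axis), of 6 named events in each of the 12 libraries. Points are libraries, black bars are means of 2 replicates, C is control, K knockdown and R rescue, and colour gives the line (blue mEx3, orange pEx3). For the Espl1 intron and the Cdc25b exon all knockdown points lie below all control points.

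Cdc25b, 1 of the 4 genes that fell by the combined test, had an exon with lower inclusion, and a link to its level was not tested. This 134 nt exon at chr2:131020362-131020495 on mm9 was included at 99.07% and 98.77% in control, 87.76% and 88.01% in knockdown and 87.54% and 91.82% in rescue of the mEx3 line. The pEx3 line had inclusion at 99.45% and 97.13%, 83.61% and 93.52%, and 93.33% and 90.31%. All knockdown and rescue libraries lay below all control libraries. The mean difference was -10.4 points (SE 2.09), with an adjusted p of 0.0229 by limma, which passes the p but not the 15 points. With 1 library left out at a time its adjusted p lay between 0.0112 and 0.104 by limma, and it was over 0.05 without any one of the 4 control libraries or without the second knockdown replicate of the mEx3 line. A second exon of Cdc25b, 123 nt at chr2:131017549-131017671, had a difference of -7.15 points (adjusted p of 0.202 by limma). Birc5, the survivin gene of the passenger complex, had a 110 nt exon at chr11:117711068-117711177 included at 91.8% and 90.8% in control and 86.9% and 84.3% in knockdown of the mEx3 line. In the other line it was included at 88.8% and 86.8% in control and 81.5% and 80.8% in knockdown. The difference was -6.2 points (SE 1.49) with an adjusted p of 0.0447 by limma. These 3 events of Espl1, Cdc25b and Birc5 passed the adjusted p at any size in this fit, 3 of 135, where 3.86% of all events did.

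Among the events called by the authors was an exon of Cenpa, of 137 nt at chr5:30972065-30972201 on mm9. It was included at 47.31% and 36.7% in control and 52.23% and 49.76% in knockdown of the mEx3 line, and at 27.11% and 31.59% in control and 40.03% and 62.6% in knockdown of the other. Knockdown lay above control within each line, though the knockdown replicates of the pEx3 line were far apart. The difference was 15.5 points (SE 4.77) with an adjusted p of 0.104 by limma, and without the lower of those replicates it was 21.1 points with an adjusted p of 0.0196. Without the higher of them it was 9.84 points with an adjusted p of 0.246 by limma. The authors' deposited splicing table calls it in knockdown of the pEx3 line, at 19.82 points. After rescue the Cenpa exon was at 47.01% and 47.8% in the mEx3 line and at 31.53% and 38.59% in the pEx3 line.

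A 5′ splice site of Prc1 is listed with a length of 77 nt and the wider interval chr7:87457922-87458094. It was used at 49.21% and 42.05% in control and 39.31% and 23.82% in knockdown of the mEx3 line. Its use in the pEx3 line was 47.37% and 40.68% in control and 27.51% and 28.96% in knockdown. All 4 knockdown libraries lay below all 4 control libraries. The difference was -14.9 points (SE 3.95) with an adjusted p of 0.0635 by limma, and -18.8 points with an adjusted p of 0.0208 without the first knockdown replicate of the mEx3 line. Without the second it was -11.1 points with an adjusted p of 0.2 by limma. The authors' deposited splicing table calls it in knockdown of the pEx3 line, at -15.21 points. A microexon of Incenp, 12 nt at chr19:9957682-9957693, was included at 46.39% and 52.45% in control and 32.52% and 34.75% in knockdown of the mEx3 line. In the other line the Incenp microexon was at 29.36% and 47.91% in control and 23.16% and 29.33% in knockdown, where both groups nearly touch. Its difference was -14.1 points (SE 4.6) with an adjusted p of 0.122 by limma. The authors' deposited splicing table calls it in knockdown of the mEx3 line, at -16.1 points, and between the lines in rescue, at -15.47 points.

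The remaining large differences did not pass. An intron of Cdc25c, 150 nt long, was retained at 9.76% and 12% in control and 11.03% and 16.96% in knockdown of the mEx3 line, where the groups overlapped. In the pEx3 line its retention was 11.63% and 9.96% in control and 30.61% and 20.57% in knockdown. The mean difference was 8.96 points (SE 2.86) with an adjusted p of 0.114 by limma. An intron of Top2a, 350 nt at chr11:98854728-98855077, was retained at 18.43% and 18.79%, then 21.4% and 26.84%, in control and knockdown of the first line, and at 14.45% and 14.75%, then 23.42% and 28.99%, in the second. It differed by 8.56 points (SE 2.87) with an adjusted p of 0.131 by limma, although all 4 knockdown libraries lay above all 4 controls. A 312 nt exon of Kif23 differed by -9.12 points (adjusted p of 0.277 by limma).

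Short introns were looked at on their own, since SAP30BP is known for a role in them. Among introns with a value in all 12 libraries, whatever their mean, the 35 genes had 390 in 34 genes, and 79.7% of them were retained at under 2%, against 73.9% of 65459 introns of all genes. Of their 89 introns under 200 nt, 1, the Cdc25c intron above, was higher by 5 points or more over both lines, against 11.7% of 10307 introns of all genes. Of the 27 under 100 nt 0 did, against 16.8% of all introns of that length, and the largest increase was 3.25 points, in Aurkb. The median change of the introns under 100 nt was 0.18 points, against 0.86 over all genes. These shares are descriptions without a test. They stood beside a lower control level, with a median of 0.46% retained in the 27 introns against 1.07% over all genes at that length. By the mean of all 12 libraries, knockdown and rescue included, 22 of the 27, 81.5%, lay under 2%. Of all introns of that length 55.0% did.

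**Figure D5:**
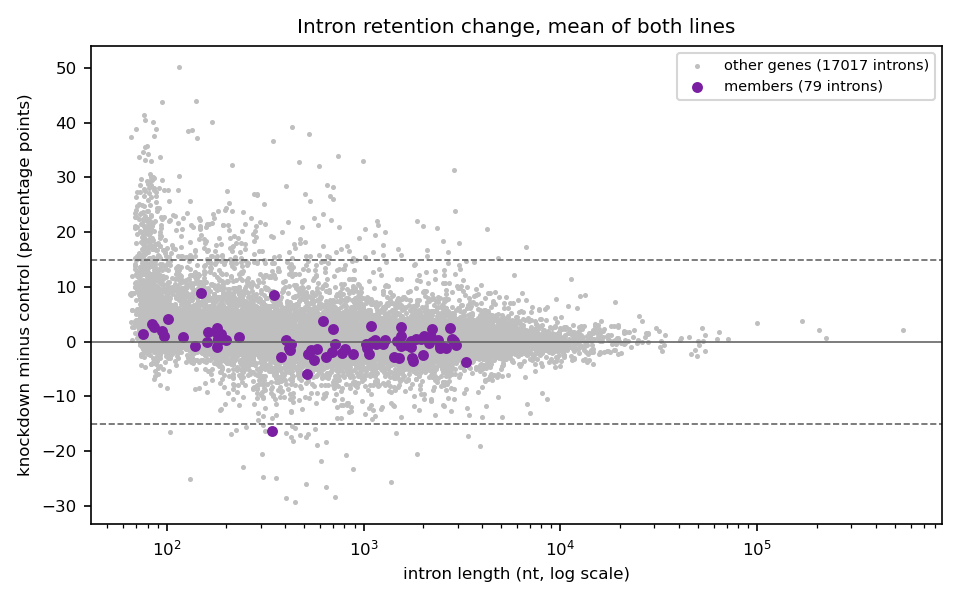
Change of intron retention, knockdown minus control over both lines in percentage points (vertical axis), against intron length in nt (horizontal axis, log scale), for the 17096 tested introns. Purple points are the 79 tested introns of the 35 genes and grey points those of all other genes, and dashed lines mark 15 points. The purple points lie below the grey cloud's upper part at short lengths, and the 1 point past a dashed line is the Espl1 intron at -16.4 points.

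Of the 79 tested introns 38 were higher and 41 lower after knockdown, with a median of -0.08 points, whereas 64.9% of all tested introns were higher. By length, 5 of 5 tested introns under 100 nt were higher (median 1.96 points), against 1790 of 1958 over all genes (median 3.52). Of those from 100 to under 200 nt 11 of 14 were higher (median 0.83 points), against 1729 of 2106 (median 1.93). From 200 to under 1000 nt 6 of 22 were higher (median -1.37 points), against 3539 of 5939 (median 0.57), and from 1000 nt 16 of 38 (median -0.30 points), against 4030 of 7093 (median 0.31). Among these tested introns the lower share of higher introns lay in those of 200 nt and over. With no filter on the mean it was seen at both lengths. Under 200 nt 52 of 89 introns were then higher, against 7590 of 10307 over all genes. From 200 nt 131 of 301 were, against 28451 of 55152. All these counts are descriptions without a test. The most retained intron of a gene reached 10% in control in 8 genes. It stood at 42.1% in Espl1, 34.8% in Cdc25c (518 nt), 23.9% in Foxm1, 17.2% in Cdc25b, 16.6% in Top2a, 12.9% in Aurkb and in Ttk, and 10.9% in Pttg1. Apart from the Espl1 intron none of these was called by limma, and the lowest adjusted p of the others was that of Top2a. The Foxm1 intron, 521 nt at chr6:128322031-128322551, was at 22.1% and 21.2% in control and knockdown of the first line and at 25.8% and 22% in the second.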

How the data were processed

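RNA from 12 libraries of N2a cells in 6 groups was used. The authors' deposited expression table gives a single RPKM for each group, in which the replicates are already combined, with the authors' log2 fold change, p-value and FDR per comparison. Per the submitters' processing notes, Salmon 0.14.1, edgeR and mm9 were used. The deposited vast-tools table gives the percent spliced in per event and library. A second deposited table gives the authors' splicing differences, handled here as a score in percentage points, and their calls. Without read numbers in the files used here the depth is unknown, and no interval for counting error was made.

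Genes with an authors' FDR under 0.05 were counted among the 21541 of 54393 genes that carry a test. As an alternative, each line's p-value was turned into a signed z. Their sum tested the knockdown over both lines and their difference tested whether the lines differ, each adjusted by Benjamini-Hochberg over all tested genes. Percentages were fitted with limma 3.58.1 (R 4.3.3) with 6 group means and a trended, robust variance. Events needed values in all 12 libraries and a mean of 2% to 98%, and the 37194 entries for the first site of a splice site group were left out. A call needed an adjusted p under 0.05 and at least 15 percentage points. The fit was also run on simulated data with independent noise and large shifts. That setting lacks the correlation between same-numbered replicates, so it checks the code and not the fit to these libraries. The plan had foreseen both deposited units.

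The 35 genes and the other gene lists were chosen with earlier results of these data known. Named genes were all 35 and the genes of the other cell cycle lists past the authors' FDR in knockdown against control or rescue against knockdown. Of the neuronal markers past that FDR only Phox2a, which passed in both lines, was named. Named events were those called by limma or the authors and the 10 events with the largest knockdown difference. The most retained intron per gene was added where control was at least 10%. Promoter windows came from a RefSeq table on GRCm38.p6. There were 0 unused columns of per-sample values. Replicate numbers were checked for pairing by correlating deviations from group means. The alternatives tried were other thresholds, RPKM ratios with a pseudocount of 1 or 0.1, centring, a minimum of 5 RPKM, 10 of 12 libraries, no mean filter, a logit scale, a replicate block and leaving out each library.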

Additional observations from a re-analysis of the deposited data

How the results depend on the processing

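Of 14 counts of genes under another threshold or filter, 2 changed. At an authors' FDR under 0.1 the pEx3 line had 3 of the 35 genes called on knockdown in place of 1, and the p-values combined over both lines called 4 in place of 0. The expression values used here are per group, so no library could be left out there. Of 24 medians, 6 changed sign, each within 0.05 of 0 in both forms. In the mEx3 line the knockdown median became 0.0213 when centred on the expressed genes. Its rescue against knockdown median became 0.0383 and 0.0387 from RPKM ratios with a pseudocount of 1 and 0.1, and its rescue against control median 0.0235 and 0.0239 from these ratios and 0.00718 when centred. For Cdc25c in that line the RPKM ratios gave -0.31 and -0.32.

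The number of the 135 events called over both lines was 2 at 10 points and 0 without a filter on the mean, where 55 of all events were called. With each library left out in turn it ranged from 0 to 2, and from 0 to 1 for knockdown in the pEx3 line, where the call came without its first knockdown replicate. The lone sample then left in a group is assumed to vary like the others. Over all events these fits called 170 to 594. Same-numbered replicates correlated at 0.04 to 0.31 in their deviations, and the labels give a number only. The replicate block left every count of called events among the 35 genes as it was, 1 over both lines and 0 elsewhere, and moved the count over all events from 430 to 514, from 6 to 103 in the mEx3 line and from 98 to 273 in the pEx3 line. With the block the adjusted p was 0.0429 for the Prc1 site and 0.0361 for the Incenp microexon, both under 15 points.

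Unknown depth and 2 replicates a group limit what splicing can show, and p-values measure the spread between these replicates only. Expression rests on the authors' tests.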

Other observations

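Several genes outside the 35, chosen after their values were seen, passed the p combined over both lines. In DNA replication these were Cdc6, Mcm4, Orc2 and Rrm2, all higher after knockdown, 4 of 40 genes against 4.24% of all tested genes. Cdc6, which loads the replicative helicase, stood at 12.2 RPKM in control and 17.7 after knockdown of the mEx3 line, and at 11.6 and 16.5 RPKM in the other, in the authors' deposited table. Its combined adjusted p was 0.0079 over the authors' p-values. Rrm2, a subunit of the enzyme that makes deoxynucleotides, had 36.2 RPKM in control against 54.3 in knockdown of the mEx3 line, and 29.2 and 37.7 RPKM in the pEx3 line, in the authors' deposited table, with a combined adjusted p of 0.0152 over the authors' p-values. Cdc25a, the CDC25 phosphatase of the G1 to S transition, was higher with a mean log2 fold change of 0.43 (combined adjusted p of 0.0171 over the authors' p-values), while Cdc25b was lower with -0.76. Of the 36 G2 regulators and DREAM or MuvB subunits, 2 rose and 2 fell by the combined test. Of all tested genes 4.24% rose and 6.38% fell.

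Cdc27, a core subunit of the anaphase-promoting complex, was higher after knockdown with a mean log2 fold change of 0.51 (combined adjusted p of 0.00864 over the authors' p-values). Ska2, of the outer kinetochore, had 0.48 with 0.0117, and Stag1, of cohesin, 0.47 with 0.0367 by the same test. Each was the 1 gene of its list to pass, among 17, 35 and 21 genes, where 4.24% of all tested genes passed as higher. None of them passed the authors' FDR in either line.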
